A study of Mus musculus with 9 samples.

Results

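The 7 miRNAs described here were mmu-miR-122-5p, the main miRNA of hepatocytes, the red cell miRNAs mmu-miR-451a, mmu-miR-144-3p, mmu-miR-486a-5p and mmu-miR-486b-5p, and mmu-miR-423-5p and mmu-miR-320-3p, which are abundant in serum and plasma. They were taken by name from the 1101 mature mouse miRNAs listed in at least 1 of 9 libraries. The reason was that they are held to point to serum, liver or red cells rather than to macrophages. From which source their reads came was not tested. Every one of the 7 was found, 6 of them in all 9 libraries. The same 6 passed the filter on low counts, and miR-144-3p did not.

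The libraries held small RNA of exosomes, vesicles that cells release into their medium, collected by ultracentrifugation from RAW264.7 cells, an established mouse macrophage line. The 3 groups were untreated cells, cells exposed to silica for 24 h and cells exposed to silica for 48 h, with 3 libraries each. All groups shared the 1 cell line and a medium with 10% fetal bovine serum, and the sources used here do not give whether that serum had been cleared of vesicles. Nor do they give the silica dose, the culture time of the untreated cells or whether the repetitions were separate cultures, so p-values measure only the spread between these libraries.

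miR-451a and miR-144-3p are cut from neighbouring hairpins of 1 red cell transcript. miR-451a is unusual in that its hairpin is cut by Argonaute 2 rather than by Dicer. It is the most abundant miRNA of mature red cells, while miR-144 restrains the oxidative stress response of erythroid cells through Nrf2. The miR-486 hairpins lie in Ank1, the gene of the red cell ankyrin, and are also made in muscle. miR-122 sustains cholesterol and fatty acid metabolism in hepatocytes and is measured in blood as a sign of liver injury. miR-423-5p has been followed in plasma in heart failure, and miR-320 comes from a short capped hairpin that needs Dicer but not Drosha.

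The mature sequences below are those of the red cell pair of which miR-451a had the largest fold change at 24 h against untreated among the 6 tested miRNAs and of both arms of miR-423, whose arms differed in level. They are RefSeq sequences of GRCm38.p6, written 5′ to 3′ with the seed, bases 2 to 8, in capitals. The RefSeq table of 1679 mature miRNAs matched 3 of the 7, and miR-122-5p, miR-486a-5p, miR-486b-5p and miR-320-3p are given by name.
miR-451a: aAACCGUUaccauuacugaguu
miR-144-3p: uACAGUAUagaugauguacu
miR-423-5p: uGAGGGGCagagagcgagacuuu
miR-423-3p: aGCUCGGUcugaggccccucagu
No seed was shared among these 4. In the same table miR-423-5p shared its seed with 1 other mature miRNA, miR-6921-5p, and the other 3 seeds occurred once.

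In the GENCODE annotation of GRCm38 (mm10), the miR-144 hairpin lay at chr11:78073005-78073070 and the miR-451a hairpin at chr11:78073170-78073241, both on the plus strand between genes, with 99 bases between them. The miR-423 hairpin lay at chr11:77078064-77078172 on the minus strand, in an intron of Nsrp1. The miR-486a hairpin, at chr8:23142555-23142682 on the plus strand, was in an intron of Ank1. The miR-486b hairpin, annotated as Mir3107 at chr8:23142573-23142662, lay inside the same interval on the minus strand, so the hairpins face each other. The miR-320 hairpin was between genes at chr14:70443510-70443591 on the plus strand. The miR-122 hairpin, at chr18:65248861-65248926 on the plus strand, lay in an exon of the long noncoding RNA AC157910.3.

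Mature miRNAs took 2158418 to 8331451 counts per library, or 28.0% to 44.7% of all counted reads. Levels are given as CPM, the count of a miRNA scaled by the library's total of mature miRNA counts after TMM normalisation, and 3 counts in a library corresponded to 0.314 to 1.56 CPM, a floor that covers counting error only. Of 9 macrophage and myeloid miRNAs, 8 were listed, led by miR-146a-5p and miR-21a-5p with means of 49713 and 37924 CPM over the 9 libraries. Their summed level was 75738 to 105765 CPM in untreated, 71502 to 84177 CPM at 24 h and 86045 to 108549 CPM at 48 h. Of the other markers, miR-155-5p and miR-342-3p averaged 800 and 697 CPM over the 9 libraries. The means of miR-223-3p, miR-142a-5p and miR-142a-3p were 126, 88.7 and 74.2 CPM. These means lay below those of miR-122-5p and miR-451a, at 1154 and 1016 CPM. miR-147-3p was not listed and miR-511-3p had 20 counts in all. Untreated library 2 and 48 h library 2 deviated together from their group means (r = 0.636 across miRNAs, a description since miRNAs are not replicates) and listed the most mature miRNAs. To a lesser degree 24 h library 2 deviated with them, with r of 0.439 to untreated library 2 and 0.289 to 48 h library 2.

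Together the 7 miRNAs took 0.568% to 0.717% of mature counts in untreated, 0.718% to 0.977% at 24 h and 0.192% to 0.826% at 48 h. The highest was miR-320-3p, with 3805 ± 1461 CPM (SD over the 9 libraries). It was followed by miR-122-5p with 1154 ± 647 CPM, miR-451a with 1016 ± 972 CPM and miR-423-5p with 882 ± 388 CPM. miR-486a-5p had 5.13 ± 2.54 CPM, miR-486b-5p 4.65 ± 5.34 CPM and miR-144-3p 0.570 ± 0.595 CPM.

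In this order, miR-320-3p stood above miR-122-5p in 8 of 9 libraries. miR-122-5p stood above miR-451a in 7 of 9, and miR-451a above miR-423-5p in 4 of 9, so the ranges of these neighbours overlapped. miR-423-5p stood above miR-486a-5p in 9 of 9 libraries with no overlap. By rank among the miRNAs of a library, miR-451a lay between place 43 and place 135 and miR-122-5p between place 47 and place 104. Among the red cell miRNAs, miR-451a was thus the abundant one, at 148 CPM or more in each library, while miR-144-3p was at or near the floor and both miR-486 5p arms stayed under 18 CPM. The ratio of miR-451a counts to the summed counts of both miR-486 5p arms was 35.98, 36.1 and 59.7 in untreated, 69.8, 93.96 and 434.7 at 24 h and 94.1, 192 and 84.5 at 48 h.

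**Figure D1:**
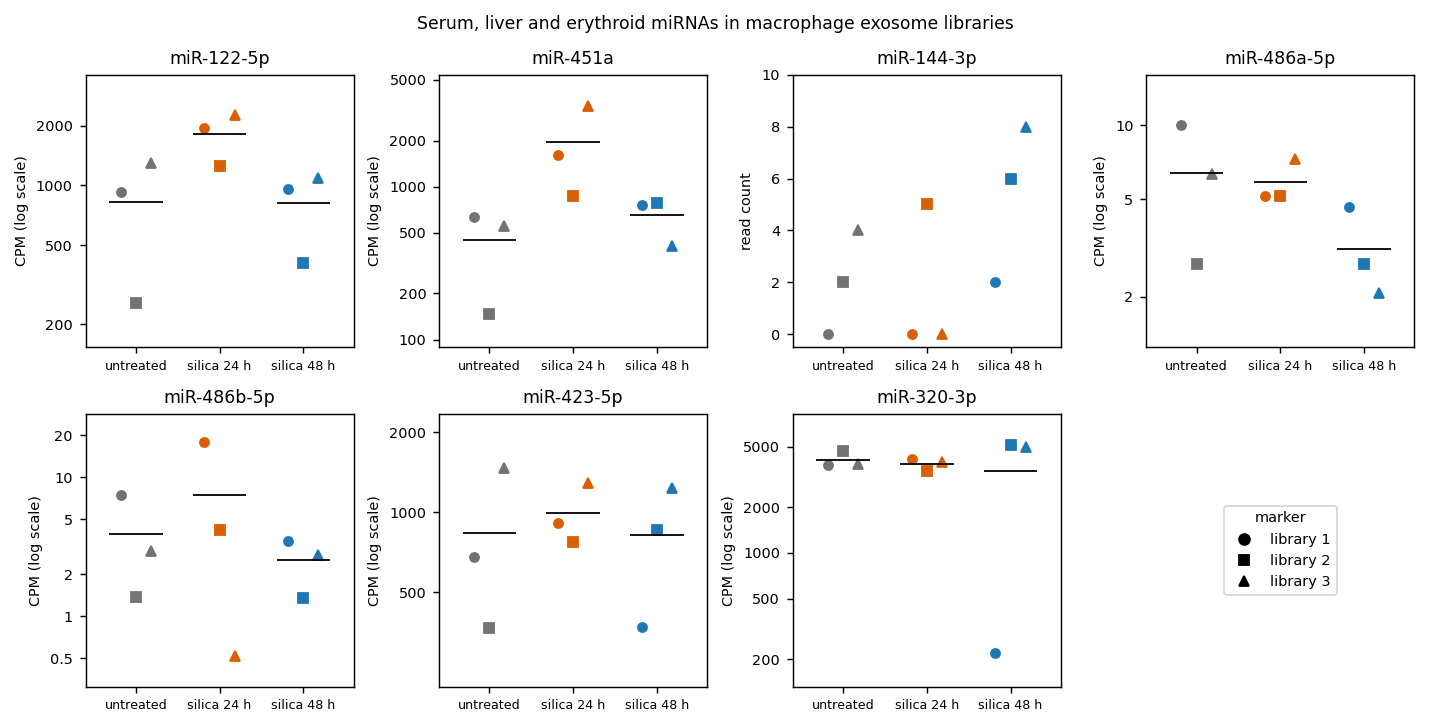
Level of each of the 7 miRNAs in each library, in CPM on a log scale or, for miR-144-3p, as read counts on a linear scale. Each marker is 1 library, its shape gives the library number and horizontal lines are group means. miR-451a lay between 872 and 3380.4 CPM at 24 h, above all untreated libraries, and miR-320-3p was at 219 CPM in 48 h library 1 alone.

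At 24 h against untreated, 0 of the 6 tested miRNAs passed the edgeR quasi-likelihood test at a Benjamini-Hochberg adjusted p of 0.05, and 0 of all 453 tested miRNAs did (0%). Of the 6, 1 had an unadjusted p under 0.05, higher at 24 h, against 46 of 453 (10.2%) in either direction and 25 higher (5.52%). The groups did not overlap for 1 of the 6, higher at 24 h, against 75 of 453 (16.6%) in either direction and 47 higher (10.4%). DESeq2 called 4 miRNAs, limma-voom 0, and edgeR with the library number as a block 3, and none of these was among the 6. The median log2 fold change of the 6 was 0.59, with 4 above 0 and 2 below, beside a median of −0.07 over the 453, of which 46.6% were above 0.

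At 48 h against untreated, 0 of the 6 and 0 of the 453 passed (0%). An unadjusted p under 0.05 was found for 0 of the 6 and 4 of the 453 (0.883%), and groups that did not overlap for 0 of the 6 and 17 of the 453 (3.75%). DESeq2 called 1 miRNA, limma-voom 0 and the blocked fit 0. The median log2 fold change of the 6 was −0.14, with 1 above 0, beside 0.03 over the 453, of which 52.5% were above 0.

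At 48 h against 24 h, 0 of the 6 and 0 of the 453 passed (0%), with an unadjusted p under 0.05 for 1 of the 6, lower at 48 h, and for 44 of the 453 (9.71%), of which 19 were lower (4.19%). All 6 had a log2 fold change below 0, with a median of −1.02, beside 0.14 over the 453, of which 54.1% were above 0. In CPM the groups did not overlap for 3 of the 6, all lower at 48 h, against 94 of the 453 (20.8%), of which 47 were lower (10.4%). These were miR-122-5p, miR-451a and miR-486a-5p. For miR-451a the groups overlapped on the deposited RPM, which divides by all counted reads. miR-486a-5p had 9 to 31 counts per library in these groups, and its hairpin overlaps that of miR-486b-5p, also among the 6. DESeq2 called 6 miRNAs, limma-voom 0 and the blocked fit 3, none among the 6. The comparisons share libraries, so the low values at 48 h against 24 h and the high ones at 24 h against untreated both rest on the 24 h libraries.

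**Figure D2:**
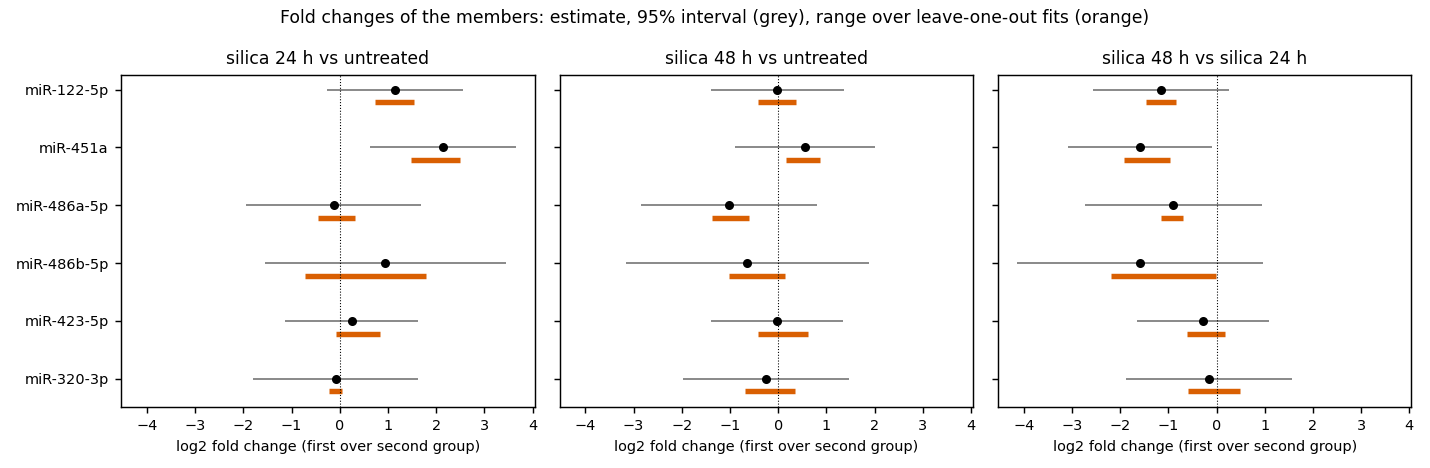
Log2 fold change of the 6 tested miRNAs in the 3 comparisons, the group named first over the group named second. Points are edgeR estimates, grey lines their 95% intervals and orange lines the range over fits that each left out 1 of the 9 libraries. The interval of miR-451a lies above 0 at 24 h against untreated, from 0.62 to 3.65, and in the 48 h against 24 h panel all 6 estimates lie below 0.

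miR-451a, the leading miRNA of red cells, stood higher in all 3 libraries of 24 h than in any untreated library. It had 630, 148 and 556 CPM in untreated, 1605, 872 and 3380.4 CPM at 24 h and 762, 786 and 409 CPM at 48 h, from 866 to 7505 counts per library. Untreated library 2 was the lowest and 24 h library 3, the library with the fewest mature counts, the highest. The means were 1953 ± 1289.7 CPM at 24 h and 444 ± 259.5 CPM in untreated (SD, n = 3 each), a log2 fold change of 2.14 (SE 0.69, fold 4.39, 95% interval 1.53 to 12.6). By edgeR's quasi-likelihood test p was 0.00994 before and 0.386 after Benjamini-Hochberg adjustment, the 10th lowest p of 453. With the library number as a block the adjusted p was 0.151. The log2 fold change was 1.48 without 24 h library 3 and 1.73 without untreated library 2 and 48 h library 2. In these bulk libraries, more vesicles of a kind and more of a miRNA per vesicle cannot be told apart, nor can miRNA of the cells be told apart from that of the serum in the medium.

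At 48 h miR-451a averaged 652 ± 211 CPM, against 444 ± 259.5 CPM in untreated, with overlapping groups and a log2 fold change of 0.55 (SE 0.67, 95% interval −0.91 to 2.01). Against 24 h all 3 libraries of 48 h were lower. The log2 fold change was −1.58 (SE 0.68, 95% interval −3.07 to −0.09) with an edgeR quasi-likelihood p of 0.0394 and a Benjamini-Hochberg adjusted p of 0.458. It was −0.96 without 24 h library 3. On the deposited RPM, which divides by all counted reads, miR-451a had 230.4, 402 and 155 at 48 h and 569.9, 365 and 846 at 24 h, so there the groups overlapped. On that scale the untreated libraries had 224, 60.3 and 218 RPM and stayed below all libraries of 24 h.

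The miR-144 hairpin next to miR-451a gave almost no reads. miR-144-3p had 0, 2 and 4 counts in untreated, 0, 5 and 0 counts at 24 h and 2, 6 and 8 counts at 48 h, 27 in all, and it was listed in 6 of 9 libraries. Its highest level was 1.84 CPM, so no fold change is given. The other arm, miR-144-5p, had 4 counts in untreated library 1 and was listed in no other library, and miR-451b, on the strand opposite miR-451a, was listed in none. Per 1000 counts of miR-451a there were 0.317 ± 0.549 counts of miR-144-3p at 24 h, against 1.31 ± 1.19 in untreated (SD, n = 3 each; two-sided exact permutation p = 0.4, adjusted p = 0.9 over 9 tests of arm shares and ratios). At 48 h there were 2.02 ± 2.15 per 1000, with exact permutation p = 0.8 against untreated and p = 0.3 against 24 h (adjusted p = 1 and 0.9), where 3 against 3 libraries cannot give a p under 0.1.

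The miR-486 pair, made in red cells and muscle, had 1 to 69 counts per library. miR-486a-5p had 54, 16 and 28 counts in untreated, 20, 31 and 14 at 24 h and 16, 26 and 9 at 48 h. This gave 10.1, 2.73 and 6.36 CPM in untreated, 5.17, 5.14 and 7.26 CPM at 24 h and 4.62, 2.72 and 2.07 CPM at 48 h. All libraries of 48 h thus lay below all of 24 h, with means of 3.14 ± 1.33 CPM at 48 h and 5.85 ± 1.22 CPM at 24 h, but the log2 fold change of −0.89 (SE 0.84) had a Benjamini-Hochberg adjusted p of 0.662 by edgeR's quasi-likelihood test. Its other log2 fold changes were −0.13 (SE 0.83) at 24 h and −1.02 (SE 0.84) at 48 h against untreated.

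miR-486b-5p had 40, 8 and 13 counts in untreated, 69, 25 and 1 at 24 h and 12, 13 and 12 at 48 h. The 24 h libraries thus held both its highest and its lowest level, 17.8 and 0.518 CPM. Its log2 fold changes were 0.94 (SE 1.14) at 24 h and −0.64 (SE 1.15) at 48 h against untreated, and −1.59 (SE 1.17) at 48 h against 24 h, with edgeR quasi-likelihood adjusted p of 0.806, 0.997 and 0.599 in that order. Without 24 h library 1, which held its highest level, the log2 fold change at 48 h against 24 h was −0.0012 and that at 24 h against untreated −0.72. The hairpins overlap on opposite strands, and the sources used here do not give how reads matching both were assigned. The separate counts and fold changes of the pair rest on that assignment, and its part in them was not tested. The ratio of miR-486a-5p to miR-486b-5p counts ran from 0.290 in 24 h library 1 to 14 in 24 h library 3. Summed, the 5p arms had log2 fold changes of 0.38 (SE 0.77) and −0.87 (SE 0.78) against untreated at 24 h and 48 h and −1.25 (SE 0.78) at 48 h against 24 h, where the edgeR adjusted p was 0.543. miR-486b-3p was uneven as well, with 180, 4 and 28 counts in untreated, 199, 21 and 91 at 24 h and 26, 5 and 30 at 48 h. miR-486a-3p had 0 to 19 counts per library.

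miR-122-5p, the hepatocyte miRNA, was listed at 255 CPM or more in every library. It had 926, 255 and 1296 CPM in untreated, 1951, 1253 and 2257 CPM at 24 h and 956, 407 and 1087 CPM at 48 h. Library 2 was the lowest of its group each time, and 24 h and untreated overlapped only through untreated library 3, at 1296 CPM, and 24 h library 2, at 1253 CPM. The mean was 1820.3 ± 515 CPM at 24 h and 825 ± 528 CPM in untreated (SD, n = 3 each). The log2 fold change was 1.14 (SE 0.64, 95% interval −0.26 to 2.55) with a Benjamini-Hochberg adjusted p of 0.543 by edgeR's quasi-likelihood test and of 0.199 with the library number as a block.

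At 48 h the mean was 817 ± 361 CPM, against 825 ± 528 CPM in untreated, a log2 fold change of −0.02 (SE 0.63, 95% interval −1.40 to 1.37), so folds of 0.378 to 2.59 lay within the interval. Against 24 h, all libraries of 48 h were lower, with a log2 fold change of −1.16 (SE 0.64, 95% interval −2.56 to 0.25) and an edgeR quasi-likelihood adjusted p of 0.507. On the deposited RPM the libraries of 24 h, at 693, 524 and 565, lay above all of untreated, at 329, 104 and 508. The 3p arm of the hairpin had 37 counts in all, and the 5p arm held 99.9% ± 0.0611 of the hairpin's counts at 24 h and 99.9% ± 0.0680 in untreated (exact permutation p = 1).

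miR-122-5p and miR-451a varied together over the libraries, as a description: Pearson's r of log2 CPM was 0.790 over the 9 libraries, which share their total counts and scaling. The ratio of miR-122-5p to miR-451a counts was 1.22, 1.44 and 0.668 at 24 h, a mean of 1.11 ± 0.396. In untreated it was 1.47, 1.72 and 2.33, a mean of 1.84 ± 0.443, so all 3 libraries of 24 h lay below all of untreated. The margin was narrow, 1.44 in 24 h library 2 against 1.47 in untreated library 1, and a difference in this ratio was not tested. At 48 h it was 1.25, 0.518 and 2.66, which spanned both other groups. Together, miR-122-5p, miR-451a, miR-144-3p and both miR-486 5p arms took 0.364% ± 0.133 of mature counts at 24 h (SD, n = 3 in each group). They took 0.143% ± 0.00577 at 48 h and 0.127% ± 0.0716 in untreated, nearly all of it miR-122-5p and miR-451a. The list of other red cell miRNAs below took 6.41% ± 1.04 at 24 h, 6.83% ± 2.82 at 48 h and 6.78% ± 2.49 in untreated.

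miR-423-5p, one of the stable plasma miRNAs, did not separate any pair of groups. It had 678, 369 and 1463 CPM in untreated, 910.3, 774 and 1287 CPM at 24 h and 371, 855 and 1232 CPM at 48 h. The log2 fold change was 0.24 (SE 0.63, 95% interval −1.13 to 1.61) at 24 h and −0.03 (SE 0.63) at 48 h against untreated and −0.27 (SE 0.63) between 48 h and 24 h. On the deposited RPM the libraries of 24 h were almost level, at 323, 324 and 322, where untreated ranged over 241, 150.2 and 574.

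The opposite arm, miR-423-3p, was the more abundant. It had 4965, 5010.5 and 3130 CPM in untreated, 6625, 5926 and 9177 CPM at 24 h and 5908, 5161 and 5845 CPM at 48 h. In CPM, all silica libraries of both times lay above all untreated ones, while on the deposited RPM 48 h and untreated overlapped. The log2 fold change was 0.73 (SE 0.39) at 24 h and 0.37 (SE 0.39) at 48 h against untreated, with Benjamini-Hochberg adjusted p of 0.543 and 0.997 by edgeR's quasi-likelihood test.

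The 5p arm held 12.1%, 11.6% and 12.3% of miR-423 counts at 24 h, against 12.0%, 6.85% and 31.9% in untreated. At 48 h it held 5.91%, 14.2% and 17.4%. The widest Wilson 95% interval of a single library, at untreated library 3, ran from 31.2% to 32.5% and covers counting error only. The group means were 11.98% ± 0.381 at 24 h and 12.5% ± 5.93 at 48 h, against 16.9% ± 13.2 in untreated (SD, n = 3 each). Two-sided exact permutation tests gave p = 0.9 at 24 h against untreated, p = 0.8 at 48 h against untreated and p = 1 at 48 h against 24 h (adjusted p = 1 for each). The 3 libraries of 24 h thus lay within the range of both other groups, and whether the spread differed between groups was not tested.

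miR-320-3p was even in 8 libraries and low in 1. It had 3788, 4677 and 3859 CPM in untreated, 4131, 3443 and 3999 CPM at 24 h and 219, 5157 and 4969.8 CPM at 48 h. In 48 h library 1 it had 758 counts, against 7714 to 49213 in the others, which put it 15.7-fold below the lowest of the other 8 libraries. Those 8 lay between 3443 and 5157 CPM, with a median of 4065 CPM.

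Of 143 miRNAs with a mean of at least 100 CPM, miR-320-3p was the 1 that stood at least 10-fold below all other libraries in any library, a count made after its values were seen. The log2 fold change was −0.25 (SE 0.79) at 48 h against untreated and −0.16 (SE 0.79) at 48 h against 24 h. Without 48 h library 1 these were 0.34 and 0.49, with edgeR adjusted p of 1.00 and 0.682, and limma-voom over all libraries gave −1.11 and −1.01, with adjusted p of 0.998 and 0.681. At 24 h against untreated the log2 fold change was −0.09 (SE 0.79, 95% interval −1.81 to 1.63). In the same library miR-423-5p, at 371 CPM, and the red cell miRNA miR-185-5p, at 26.9 CPM, were also the lowest of their group. Others were the highest of their group there, among them miR-423-3p at 5908 CPM, miR-486a-5p at 4.62 CPM and miR-486b-5p at 3.47 CPM. miR-122-5p and miR-451a lay between the other libraries of 48 h. The part of that library in these values was not tested.

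The tables also count precursor families from Rfam, apart from the mature miRNAs. For miR-320 the precursor count was 11.2%, 1.36% and 7.19% of the mature count in untreated, 8.86%, 2.44% and 8.94% at 24 h and 15.8%, 1.14% and 9.43% at 48 h. The libraries numbered 2 thus had 1.14% to 2.44% in all 3 groups, where the other 6 had 7.19% to 15.8%. For miR-451 the precursor count was 8.04%, 7.16% and 6.95% of the mature count in untreated, 6.42%, 10.4% and 4.06% at 24 h and 7.85%, 7.16% and 5.46% at 48 h. The precursor counts of miR-122, miR-486, miR-144 and miR-423 summed to 15, 3, 1 and 1 over the 9 libraries.

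**Figure D3:**
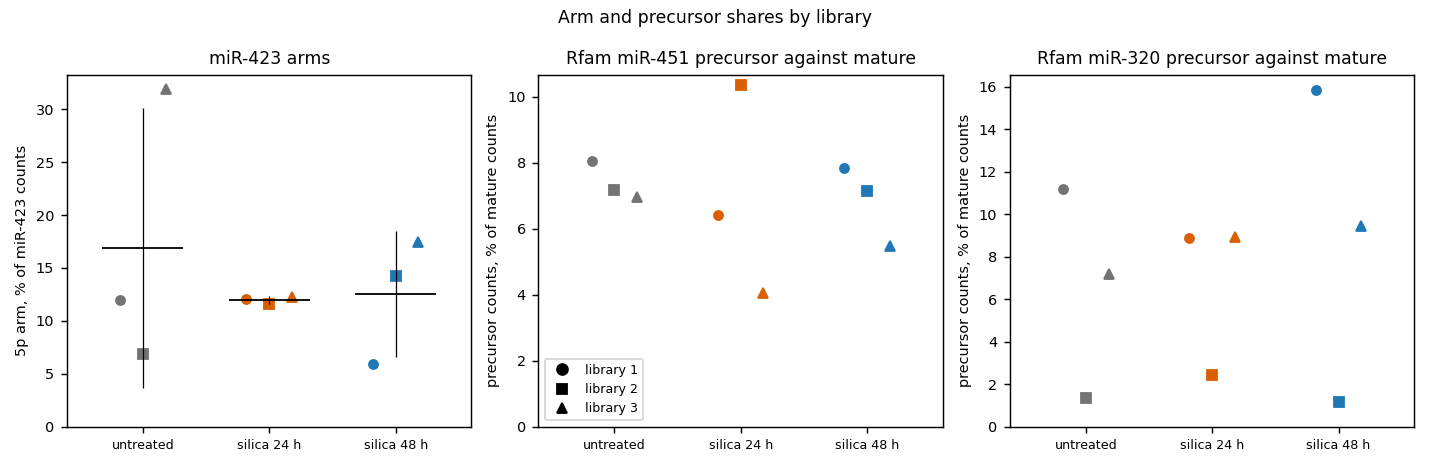
Share of the 5p arm among miR-423 counts, and precursor counts of miR-451 and miR-320 as a percent of the mature counts, in each library. Each marker is 1 library, its shape gives the library number, and in the first panel horizontal lines are group means and vertical lines 1 SD. The 5p share spans 11.6% to 12.3% at 24 h, and the libraries numbered 2 lie at 1.14% to 2.44% in the miR-320 panel.

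The other red cell miRNAs were mostly far more abundant than miR-451a and are also made by other cells. Of a list of 7, all were listed, 5 were tested and 0 passed in any comparison. At 24 h against untreated 1 had a log2 fold change above 0 and 4 below, with a median of −0.52, and at 48 h against 24 h 3 were above and 2 below, with a median of 0.56. miR-92a-3p, of the miR-17-92 cluster that is also active in dividing cells, averaged 39399 ± 16791 CPM at 24 h and 23957 ± 1863 CPM in untreated, with overlapping libraries. miR-16-5p, an inhibitor of the cell cycle, had 8559, 9440 and 9576 CPM at 24 h, against 8543, 32765 and 10474 CPM in untreated. miR-93-5p had 10489.7, 8349.5 and 10381 CPM at 24 h, against 11568, 16572 and 9521 CPM in untreated. On the deposited RPM its libraries of 24 h, at 3725, 3494 and 2598, all lay below those of untreated, at 4108, 6752 and 3735. miR-25-3p had 7156 ± 520 CPM at 24 h and 10293 ± 1978 CPM in untreated, with all libraries of 24 h lower and an edgeR quasi-likelihood adjusted p of 0.631.

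Other liver miRNAs were scarcer than miR-122-5p. Of a list of 7, 5 were listed and 3 tested, and 0 passed in any comparison. The log2 fold changes at 24 h against untreated were above 0 for all 3, with a median of 0.36, and at 48 h against 24 h below 0 for all 3, with a median of −0.60. miR-192-5p, of liver and gut epithelium, averaged 254 ± 56.6 CPM at 24 h and 198 ± 33.0 CPM in untreated, with overlapping libraries. Its cluster partner miR-194-5p averaged 133 ± 69.5 CPM at 24 h and 114 ± 21.6 CPM in untreated. miR-802-5p and miR-802-3p, which mark hepatocytes and pancreas, were not listed in any library.

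A list of 7 miRNAs abundant in serum held miR-423-3p, described above, and miR-16-5p and miR-93-5p, which are also on the red cell list. All 7 were tested and 0 passed with the filter on low counts. At 24 h against untreated 3 had a log2 fold change above 0 and 4 below, with a median of −0.37. miR-484 averaged 916 ± 169.8 CPM at 24 h and 427 ± 223 CPM in untreated, with all libraries of 24 h higher in CPM but overlapping groups on the deposited RPM, a log2 fold change of 1.10 (SE 0.56) and an edgeR adjusted p of 0.543. miR-24-3p, of the miR-23/27/24 clusters, had 13050.4, 10271 and 11516 CPM at 24 h, against 121185, 21399 and 24143 CPM in untreated. All libraries of 24 h were lower, and untreated library 1 stood far above the other untreated ones. This gave a log2 fold change of −2.26 (SE 0.75) with an edgeR quasi-likelihood adjusted p of 0.386, but with no filter on low counts it was −2.41 with an adjusted p of 0.00128. Without that filter miR-24-3p was also called at 48 h against 24 h, with a log2 fold change of 2.38 and an edgeR adjusted p of 0.00108. miR-191-5p averaged 21882 ± 1582 CPM at 24 h and 15065 ± 5677 CPM in untreated, with overlapping libraries. Of 4 miRNAs of platelets, lymphocytes and endothelium, 3 stood above 0 at 24 h against untreated and all 4 below 0 at 48 h against untreated, and 0 passed; miR-223-3p among them is also a macrophage marker. Their endothelial member miR-126a-3p averaged 617 ± 272 CPM at 24 h and 532 ± 161 CPM in untreated.

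**Figure D4:**
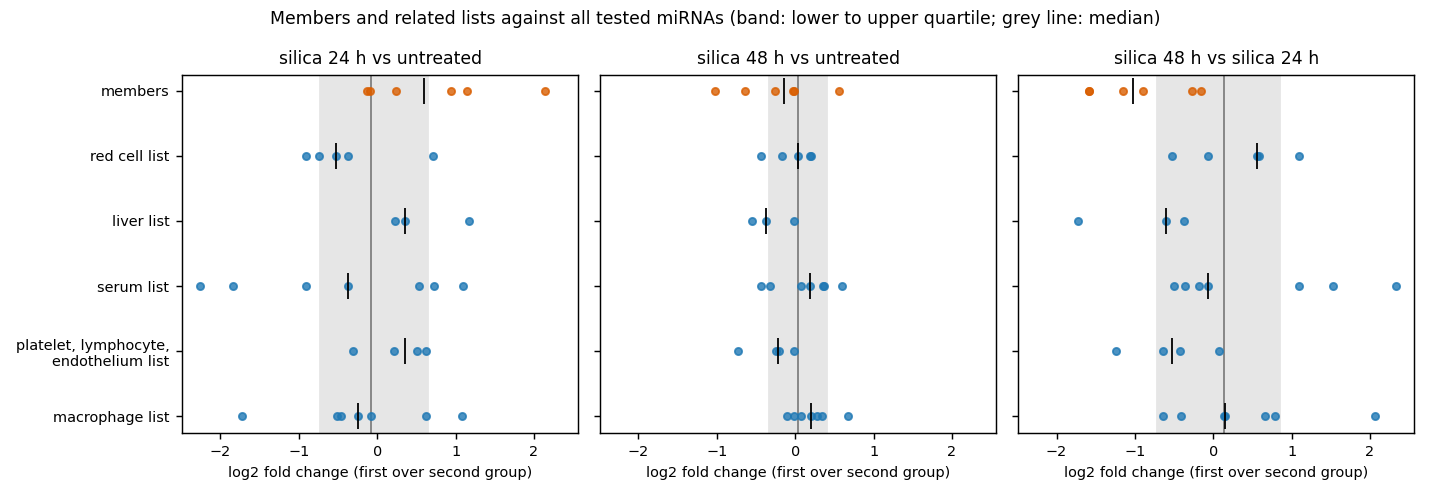
Log2 fold changes of the 6 tested miRNAs (orange) and of the tested members of 5 related lists (blue) in the 3 comparisons, the group named first over the group named second. Black ticks are medians, the grey line is the median of all 453 tested miRNAs and the band runs from their lower to their upper quartile. The medians at 24 h against untreated are 0.59 for the 6 and −0.52 for the red cell list, and at 48 h against 24 h −1.02 and 0.56.

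The profiles most like those of the more abundant members were found by Pearson's r of log2 CPM over the 9 libraries. The libraries share totals and scaling, so r is a description. These profiles were picked for the highest r among all tested miRNAs, so high values follow in part from the pick. For miR-122-5p they were miR-222-3p, miR-204-5p and miR-411-5p, with r of 0.953, 0.953 and 0.947. For miR-451a they were miR-143-3p, miR-410-3p and miR-411-5p, with r of 0.911, 0.911 and 0.845. Both lists thus held miR-411-5p. For miR-423-5p they were miR-744-5p, miR-3109-3p and miR-6898-5p, with r of 0.851, 0.847 and 0.842. For miR-320-3p, whose low library weighs in the measure, they were miR-30c-2-3p, miR-25-5p and miR-7078-5p, with r of 0.912, 0.912 and 0.888. Some of these miRNAs had few reads. miR-7078-5p, miR-6898-5p, miR-410-3p and miR-3109-3p averaged 6.79, 8.03, 8.32 and 9.93 CPM. miR-486a-5p and miR-486b-5p, whose hairpins overlap in the genome, had an r of 0.281. How reads matching both were assigned is not given, and the part of that assignment in this r was not tested.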

How the data were processed

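Small RNA of exosomes was sequenced in 9 libraries of 3 groups, grouped by their labels. Trim Galore, Bowtie and HTSeq and the build mm10 were used, per the submitters' processing notes. Per the file headers, each deposited table gives a count of reads for every small RNA and a second column called TPM, which is that count divided by all counted reads and scaled to RPM (matched within 0.005). The tables list mature miRNAs from 1 count, and an unlisted one was taken as 0.

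Counts of mature miRNAs with a minimum of 10 by filterByExpr (453 of 1101) were tested with edgeR 4.0.16 (R 4.3.3), with TMM factors of 0.829 to 1.16, in 1 quasi-likelihood fit over the 9 libraries with the group as only term and 6 residual degrees of freedom. P-values were Benjamini-Hochberg adjusted over the 453 with a threshold of 0.05, and the common dispersion had a square root of 0.756. Exact permutation tests, two-sided, compared arm shares and ratios in Python 3.11.15. Alternatives were other scalings, no filter, DESeq2 1.42.0, limma-voom (limma 3.58.1), fits of only the groups compared, a block, single libraries left out and summed miR-486 arms.

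Deviations from the group mean were correlated between same-numbered libraries, with r of 0.136, 0.439 and 0.149 for numbers 1 to 3 at 24 h and untreated, 0.152, 0.636 and 0.315 at 48 h and untreated, and −0.0679, 0.289 and 0.253 at 48 h and 24 h. The labels state no pairing, and the block is given as an alternative. Chi-square per degree of freedom between libraries of a group was 302 to 3837, so none was a duplicate.

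The members and lists were chosen with earlier results of these data known. The text names the members, their other arms and miR-451b, members of each list from among its 4 most abundant and, for members of at least 100 CPM, the 3 miRNAs of highest r. miR-185-5p, miR-484, miR-142a-3p, miR-142a-5p, miR-511-3p, miR-147-3p, miR-802-5p and miR-802-3p were named after their values were seen.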

Additional observations from a re-analysis of the deposited data

How the results depend on the processing

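None of the 6 tested miRNAs passed an adjusted p of 0.05 under any alternative. Of 339 alternative values, 32 changed sign, in 11 of 18 fold changes. The count of called miRNAs at 24 h against untreated was 0 and moved to 1 with upper-quartile factors, 7 with no filter, 4 by DESeq2, 1 with only the groups compared, 3 with the replicate block and 0 to 1 with single libraries left out (1 without 48 h library 1 or 2). At 48 h against untreated it moved to 1 with no filter and 1 by DESeq2. At 48 h against 24 h it moved to 16 with no filter, 6 by DESeq2, 3 with the replicate block and 0 to 1 with single libraries left out (1 without 48 h library 1). Relative to TMM, upper-quartile factors shifted the median log2 fold change by 0.16, 0.05 and −0.11, and library sizes of all reads by −0.17, 0.06 and 0.24, in the order of the comparisons. The replicate block changed no call among the 6. By limma-voom miR-320-3p was −1.11 at 48 h against untreated and −1.01 at 48 h against 24 h.

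Signs turned at 24 h against untreated for miR-486a-5p (0.021 by limma-voom, 0.033 with the block, 0.38 summed with miR-486b-5p) and miR-320-3p (0.071 with upper-quartile factors). They turned at 48 h against untreated for miR-122-5p (0.0079 with upper-quartile factors, 0.14 by limma-voom, 0.11 with the block) and miR-423-5p (0.075 with library sizes of all reads, 0.050 with no filter, 0.066 by limma-voom, 0.045 with the block). They turned at 48 h against 24 h for miR-423-5p (0.068) and miR-320-3p (0.23) with library sizes of all reads, and for miR-320-3p with no filter (0.020).

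With single libraries left out, or untreated library 2 and 48 h library 2 together, a pair chosen after seeing the data, log2 fold changes at 24 h against untreated ran from −0.48 to 0.31 for miR-486a-5p, −0.72 to 1.79 for miR-486b-5p, −0.10 to 0.83 for miR-423-5p and −0.22 to 0.045 for miR-320-3p. At 48 h against untreated they ran from −0.43 to 0.38 for miR-122-5p, −0.019 to 0.87 for miR-451a, −1.03 to 0.14 for miR-486b-5p, −0.43 to 0.62 for miR-423-5p and −0.69 to 0.34 for miR-320-3p. At 48 h against 24 h they ran from −0.61 to 0.17 for miR-423-5p, −2.19 to −0.0012 for miR-486b-5p and −0.60 to 0.49 for miR-320-3p. The difference in the 5p share of miR-423 ran from −9.96 to 2.54, −9.42 to 3.08 and −1.91 to 3.83 percentage points in the 3 comparisons, that of miR-122 at 24 h against untreated from −0.032 to 0.040, and that of miR-144-3p per 1000 miR-451a at 48 h against untreated from −0.536 to 1.34. The cause was not tested for any of these. Depth limits miR-144-3p and both miR-486 5p arms, with 0 to 69 counts per library.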
